A study of Mus musculus with 24 samples.

Results

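The helix-loop-helix genes described here were *Tcf4* and the other two E proteins *Tcf3* and *Tcf12*, the 4 Id genes *Id1*, *Id2*, *Id3* and *Id4*, and the neuronal factors *Neurod1*, *Neurod2* and *Bhlhe22*. They were chosen by gene name, which matched 10 of the 46983 genes in the count table, and all 10 had enough reads to be tested. RNA was sequenced from hippocampal tissue punches of 24 adult female C57BL/6 mice in 4 groups of 6. Fkbp5lox/lox mice had floxed *Fkbp5* but no Cre, and were the wild-type littermates. In Fkbp5Nex mice, Cre expressed from the *Nex* locus (gene symbol *Neurod6*) removed *Fkbp5* from glutamatergic neurons of the forebrain, a driver known to spare dentate granule cells, interneurons and glia. In each genotype, one group grew up with limited bedding and nesting material from postnatal day 2 to 9 (early life stress, ELS) and the other under standard conditions (control). Mice are named by the numbers in their labels.

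E proteins are broadly expressed transcription factors that bind the DNA letters CANNTG (the E-box) as pairs, either with each other or with a tissue-restricted partner such as a Neurod factor. Id proteins have the pairing domain but no DNA-binding domain, so that an E protein held by an Id protein cannot bind DNA. In the brain, Neurod factors drive neuronal differentiation, *Neurod1* is used by dentate granule cells, *Bhlhe22* (Bhlhb5) is a repressor of projection neurons, and Id genes are targets of bone morphogenetic protein (BMP) signalling that are also expressed in astrocytes and vessels.

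RefSeq promoter windows (GRCm38.p6, 250 bases before and 50 after the start) were examined for 7 of the 10 genes. No window was found for *Id1* or *Bhlhe22*. *Tcf4* was left out of the promoter search, so its promoter was not examined. *Neurod2* and *Id4* are shown because they had the lowest p-values of the family for genotype, and *Neurod1* and *Id2* because they had the closest relations to cell type markers described further on. Capitals mark E-boxes, and sequences run 5′ to 3′ on the strand of the gene.
Neurod2 upstream of exon 1, minus strand, chr11:98329649-98329895: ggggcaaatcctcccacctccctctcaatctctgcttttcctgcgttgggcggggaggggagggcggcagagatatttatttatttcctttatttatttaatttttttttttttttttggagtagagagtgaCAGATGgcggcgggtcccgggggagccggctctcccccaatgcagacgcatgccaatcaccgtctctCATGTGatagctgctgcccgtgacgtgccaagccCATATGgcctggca
Id4 upstream of exon 1, plus strand, chr13:48260866-48261115: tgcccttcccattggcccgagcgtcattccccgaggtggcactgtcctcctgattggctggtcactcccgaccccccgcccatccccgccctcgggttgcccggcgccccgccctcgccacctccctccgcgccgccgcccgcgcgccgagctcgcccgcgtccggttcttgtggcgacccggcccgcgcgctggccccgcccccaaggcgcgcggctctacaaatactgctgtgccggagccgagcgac
Neurod1 E-box, minus strand, chr2:79456857-79456886: gggaagacCATATGgcgcatgccggggagg
Id2 E-box, minus strand, chr12:25096271-25096300: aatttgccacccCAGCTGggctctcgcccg
The *Neurod2* window had 3 E-boxes, which began 118, 51 and 17 bases before the start, and the first of them reads CAGATG. The window of *Id4* had none, and neither had that of *Id3*. The starts are those of RefSeq. Exons annotated in GENCODE vM21 covered all 250 upstream bases of the *Id3* window, 161 of those of *Id2* and 149 of those of *Neurod1*. *Neurod1* had 1 E-box, CATATG, and *Id2* had 1, CAGCTG. Of 32851 RefSeq promoters of this length, 72.3% held CANNTG, 17.2% CAGATG and 16.3% CAGCTG, each searched on both strands and with CAGATG and CAGCTG counted within CANNTG too. The letters GGCGCC, the form of a Smad site in BMP targets, were found once each in *Id2* and *Id4* and in 11.9% of all promoters. These matches describe the letters only.

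Total counts ranged from 18347283 to 26555623 per mouse. *Fkbp5*, the targeted gene, lay between 47.7 and 63.4 CPM (reads relative to the library size, scaled by the trimmed mean of M values, TMM) in the Fkbp5lox/lox mice and between 8.71 and 26.5 in the Fkbp5Nex mice, with no overlap between genotypes. Of 11 lists of cell type markers, no marker was at 0 in all mice, and hippocampal markers were present in every group. The summed level of 8 dentate granule markers had medians of 300 CPM in Fkbp5lox/lox control, 327 in Fkbp5lox/lox ELS, 153 in Fkbp5Nex control and 145 in Fkbp5Nex ELS mice, and 3 of the 8 were lower in Fkbp5Nex mice when the false discovery rate (FDR) was set to 0.02. Summed choroid plexus markers ranged from 14.4 to 4520 CPM between mice, and 1 of the 4 tested was lower in Fkbp5Nex mice, while none of the other 9 lists had a marker called for genotype. The part of these markers in the results was not tested unless a value is given, and fewer cells of a type cannot be told apart from less RNA per cell in tissue punches.

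Per kilobase of exon, the neuronal factor *Neurod2* had the highest level of the family, at 44.7 ± 7.29 CPM per kb (SD over 24 mice), followed by *Id2* at 35.0 ± 4.86 and *Bhlhe22* at 30.7 ± 3.36. *Tcf4* was at 18.9 ± 1.53, *Id3* at 16.4 ± 4.04, *Id4* at 11.7 ± 1.69 and *Neurod1* at 8.81 ± 2.01. *Id1* was at 8.04 ± 1.47, *Tcf3* at 5.72 ± 0.465 and *Tcf12* at 4.12 ± 0.278. The order held in 24 of 24 mice for *Bhlhe22* over *Tcf4*, for *Id1* over *Tcf3* and for *Tcf3* over *Tcf12*. It held in 14 of 24 mice for *Neurod1* over *Id1*, whose means differed by less than their SDs, and in 18 of 24 for *Id2* over *Bhlhe22*. *Tcf4* has 27382 bases of annotated exon in total (GENCODE vM21, GRCm38), far more than one of its transcripts holds, so its level per length is understated against the short Id genes. Not divided by length, *Tcf4* had the most reads, at a mean of 516 CPM, followed by *Neurod2* at 140 and *Bhlhe22* at 103.

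**Figure D1:**
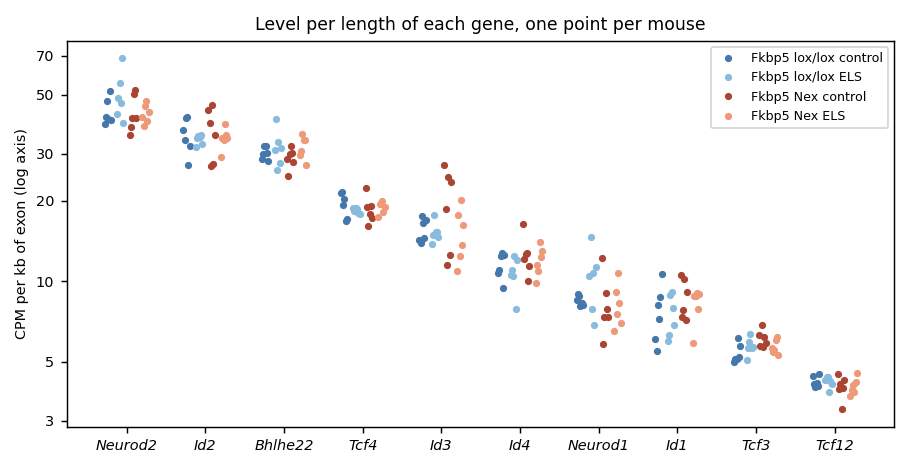
Level per kilobase of exon (CPM per kb, log axis) of each gene, with 1 point per mouse and colours for the 4 groups. *Neurod2*, *Id2* and *Bhlhe22* lie highest and *Tcf12* lowest, at 4.12 CPM per kb on average. The place of *Tcf12* depends on the length used, and by reads it lay above *Tcf3*.

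Among the E proteins, *Tcf4* made up a median of 65.6% of the summed level per length (range 59.5% to 70.1%). For *Tcf3* the share was 20.1% (16.2% to 25.3%) and for *Tcf12* 14.2% (12.3% to 16.4%). These shares depend on the lengths used, and *Tcf12* had more reads than *Tcf3*. Among the Id genes, *Id2* made up 49.3% ± 2.99, *Id3* 22.8% ± 2.59, *Id4* 16.5% ± 1.84 and *Id1* 11.3% ± 1.69. The ratio of summed Id to summed E protein level per length was 2.48 ± 0.334 over all mice, and 0.280 ± 0.0355 for summed CPM not divided by length, so that which sum is larger depends on the length used for *Tcf4*. Per length, it was 2.42 ± 0.269 in Fkbp5lox/lox control, 2.38 ± 0.0979 in Fkbp5lox/lox ELS, 2.69 ± 0.555 in Fkbp5Nex control and 2.42 ± 0.227 in Fkbp5Nex ELS mice (SD, n = 6 each). The range of the Fkbp5Nex controls, 1.95 to 3.47, covered that of each other group.

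None of the 10 genes passed the test for genotype, for ELS or for their interaction. In edgeR's quasi-likelihood fit over 16209 genes, 0 of 10 passed an FDR of 0.02 for genotype, where 0.136% of all genes tested passed. The count was also 0 of 10 in each of the 6 other comparisons. There, the share of all genes that passed was 0% for ELS, for the interaction and for ELS within either genotype, 0.0740% for genotype in control mice and 0.0123% for genotype in ELS mice. DESeq2 called 0 of 10 in all 7 as well. Of all 16209 genes it called 66 for genotype, 53 for genotype in control and 4 for genotype in ELS mice. It called 1 for ELS in Fkbp5lox/lox and 0 for ELS, the interaction and ELS in Fkbp5Nex. At an unadjusted p below 0.05, the edgeR fit counted 2 of the 10 genes for genotype (11.4% of all genes). It counted 0 for ELS (3.53%), 1 for the interaction (3.95%), 0 for ELS in Fkbp5lox/lox (4.98%) and 1 for ELS in Fkbp5Nex (2.76%). For genotype it counted 1 in control mice (8.78%) and 2 in ELS mice (6.30%). The median log2 fold change for genotype was 0.02 over the family and 0.00 over all genes tested.

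**Figure D2:**
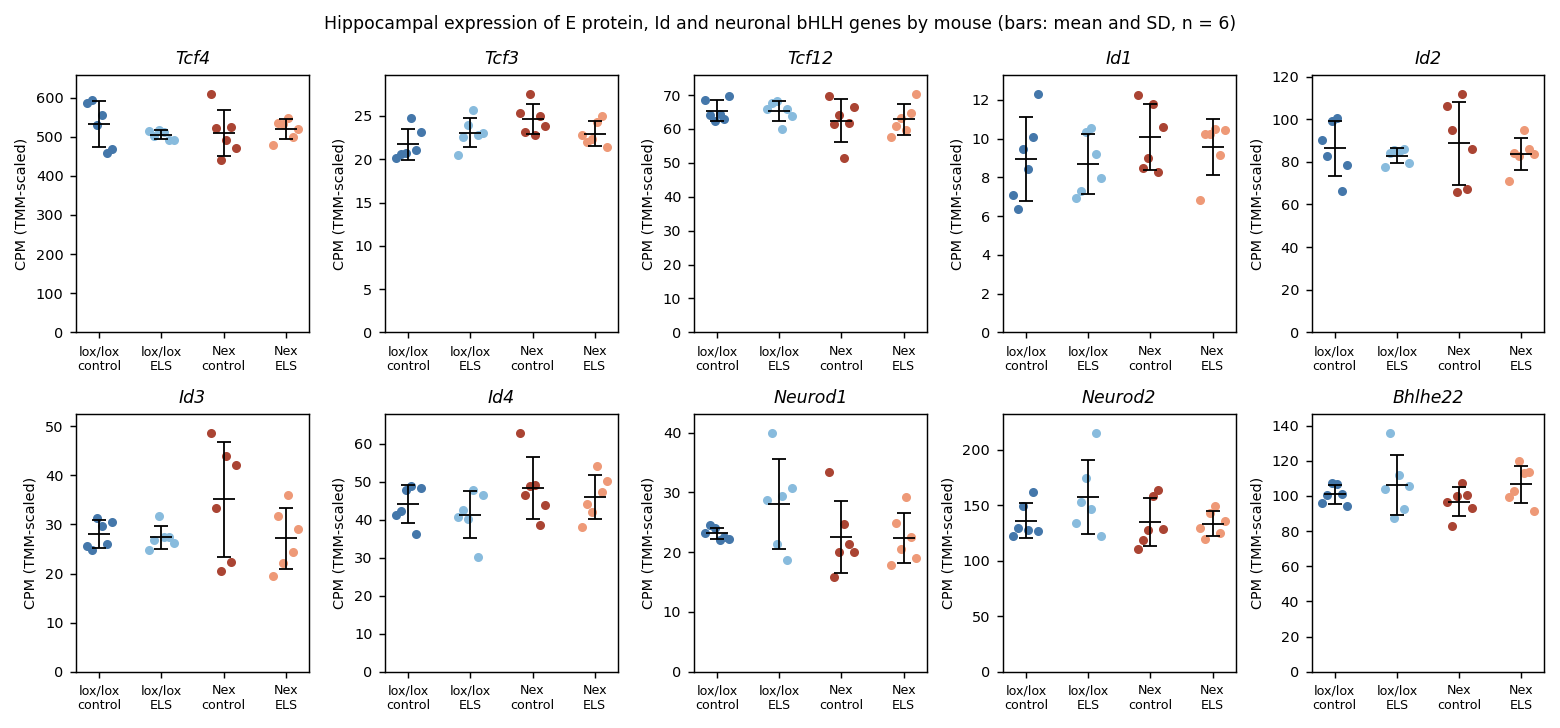
CPM (vertical axes, from 0) of the 10 genes in the 4 groups, with 1 point per mouse and bars for the mean and SD (n = 6). The groups overlap for every gene, and *Id3* spreads widest in Fkbp5Nex controls, from 20.6 to 48.6 CPM.

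The E proteins were the steadiest members of the family. *Tcf4* had 459 to 594 CPM in Fkbp5lox/lox control mice (median 543), 491 to 517 in Fkbp5lox/lox ELS (506), 440 to 610 in Fkbp5Nex control (506) and 478 to 549 in Fkbp5Nex ELS mice (527). The ranges overlapped, and that of the Fkbp5lox/lox ELS mice was the narrowest. The log2 fold change of *Tcf4* for genotype was 0.02 ± 0.03 (SE, edgeR FDR 0.836), with a 95% interval of -2.83% to 5.75%. For ELS it was -0.01 ± 0.03 (FDR 0.998), with an interval of -4.91% to 4.41%. Over the settings tried, the ELS value of *Tcf4* ran from -0.09 to -0.01 in Fkbp5lox/lox mice and from -0.02 to 0.08 in Fkbp5Nex mice. The interaction, the former effect minus the latter, ran from -0.16 to -0.003 (edgeR or DESeq2, lowest unadjusted p = 0.0483, lowest FDR 0.896). None of these values was called. The intervals for genotype and ELS are those of total *Tcf4* RNA in the punches after adjustment for 5 surrogate variables, and say nothing of isoforms. Surrogate variables stand for unlabelled differences between mice, and held 78.3% of the variance of *Tcf4* within groups.

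*Tcf3* (E2A) had 20.2 to 24.7 CPM in Fkbp5lox/lox control (median 20.9), 20.5 to 25.7 in Fkbp5lox/lox ELS (22.9), 22.9 to 27.6 in Fkbp5Nex control (24.4) and 21.4 to 25.0 in Fkbp5Nex ELS mice (22.5). The Fkbp5lox/lox controls were lowest by median and the Fkbp5Nex controls highest, with overlap. The log2 fold change for genotype in control mice was 0.16 ± 0.06 (unadjusted p = 0.0121, edgeR FDR 0.430) and that in ELS mice 0.00 ± 0.06 (FDR 0.999). The difference between these, the interaction, was 0.16 ± 0.09 (FDR 0.999). *Tcf12* (HEB), the third E protein, lay between 51.5 and 70.4 CPM over all mice, and its interval for genotype was -6.88% to 2.18%.

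The Id genes varied more from mouse to mouse. All 4 had a positive log2 fold change for genotype, with a median of 0.12, and none passed the test. The sign was not stable for *Id1*, which was at -0.05 without Fkbp5Nex control mouse 12, or for *Id2*, which ranged from -0.02 to 0.04 over the settings tried. In the same fit, 7 of 8 astrocyte markers (median 0.14), 8 of 8 endothelial and mural markers (0.13) and 8 of 8 microglia markers (0.08) were positive too. So were 8 of 8 oligodendrocyte markers (0.15) and 7 of 7 thalamus markers (0.39), with none called in any of these lists. The 8 dentate granule and 4 tested choroid plexus markers were all negative, and the other lists were mixed. The part of these markers in the Id values was not tested. Of the Id genes, *Id4* had the largest value, 0.18 ± 0.07 (SE, unadjusted p = 0.0128, edgeR FDR 0.285). Its level was 36.3 to 49.0 CPM in Fkbp5lox/lox control (median 45.1), 30.3 to 47.8 in Fkbp5lox/lox ELS (41.6), 38.6 to 62.9 in Fkbp5Nex control (47.7) and 38.1 to 54.0 in Fkbp5Nex ELS mice (45.8). The medians of both Fkbp5Nex groups were above those of the Fkbp5lox/lox groups, with wide overlap. Within rearing conditions, the log2 fold change of *Id4* was 0.10 ± 0.09 (FDR 0.798) in control and 0.26 ± 0.10 (FDR 0.731) in ELS mice. Reads of *Id4* can be shared with 2 genes on the opposite strand, which overlap 253 of its exonic bases.

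*Id3* had 24.9 to 31.3 CPM in Fkbp5lox/lox control (median 27.9), 24.7 to 31.6 in Fkbp5lox/lox ELS (27.04), 20.6 to 48.6 in Fkbp5Nex control (37.7) and 19.5 to 36.0 in Fkbp5Nex ELS mice (26.8). Of the Fkbp5Nex controls, mice 42 and 54 were at 22.4 CPM or less and mice 12, 32, 52 and 64 at 33.3 or more. The log2 fold change of *Id3* for ELS in Fkbp5Nex mice was -0.18 ± 0.14 (FDR 0.9995), with an interval of -28.3% to 8.21%. Over the settings tried, this value ran from -0.38 to 0.01. That of *Id3* for genotype ran from 0.05 to 0.17 (edgeR or DESeq2, lowest FDR 0.436), and in control mice from 0.05 to 0.33 (lowest FDR 0.549). *Id2*, the most abundant of the Id genes, had group means of 86.3 ± 13.1, 82.9 ± 3.45, 88.7 ± 19.5 and 83.7 ± 7.63 CPM (SD, n = 6) in the order Fkbp5lox/lox control, Fkbp5lox/lox ELS, Fkbp5Nex control and Fkbp5Nex ELS. Its interval for genotype was -6.71% to 9.04%. *Id1*, the scarcest of the family by reads, ranged from 6.35 to 12.3 CPM, from 138 to 279 counts, and its interval for genotype was -6.34% to 24.7%.

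Of the neuronal factors, *Neurod2* had a log2 fold change for genotype of -0.17 ± 0.07 (SE, unadjusted p = 0.0302, edgeR FDR 0.388). It had 122 to 162 CPM in Fkbp5lox/lox control (median 129), 123 to 215 in Fkbp5lox/lox ELS (150), 111 to 164 in Fkbp5Nex control (129) and 120 to 149 in Fkbp5Nex ELS mice (132). The control medians were alike, and the Fkbp5lox/lox ELS group held the highest mouse, number 72. The log2 fold change in ELS mice was -0.25 ± 0.11 (unadjusted p = 0.0261, FDR 0.754) and that in control mice -0.08 ± 0.10 (FDR 0.860). Without Fkbp5lox/lox ELS mouse 72, the value in ELS mice was -0.09 ± 0.09 (unadjusted p = 0.324). *Neurod6*, the related gene that carries Cre in Fkbp5Nex mice, had a log2 fold change for genotype of -0.90 ± 0.15 (FDR 0.00939), with 157 to 355 CPM in Fkbp5lox/lox and 51.6 to 205 in Fkbp5Nex mice. This call was lost without surrogate variables (log2 fold change -0.86, FDR 0.171) and in 8 of 24 fits with 1 mouse left out, of which the fit without Fkbp5Nex control mouse 12 gave the highest FDR, 0.176.

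*Neurod1* had 22.1 to 24.5 CPM in Fkbp5lox/lox control (median 22.9), 18.6 to 39.9 in Fkbp5lox/lox ELS (29.03), 15.9 to 33.5 in Fkbp5Nex control (20.8) and 17.8 to 29.2 in Fkbp5Nex ELS mice (21.6). The Fkbp5lox/lox controls were the narrowest group and lay within the range of every other. The log2 fold change for genotype in ELS mice was -0.03 ± 0.09 (edgeR FDR 0.969) with the 5 surrogate variables in the model and -0.34 ± 0.16 (unadjusted p = 0.049, not called) without them. These variables, which stand for unlabelled differences between mice, held 82.1% of the variance of *Neurod1* within groups, 78.3% of that of *Tcf4* and 33.0% of that of *Id1*. The 8 dentate granule markers had a median log2 fold change for genotype of -0.54 in the same fit, in which *Neurod1* was at -0.07 ± 0.06 (FDR 0.685). *Neurod1* shares 355 exonic bases with *Cerkl* and a gene on the opposite strand.

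*Bhlhe22* had medians of 101 CPM in Fkbp5lox/lox control, 105 in Fkbp5lox/lox ELS, 98.1 in Fkbp5Nex control and 108 in Fkbp5Nex ELS mice. Its ranges, 94.0 to 107, 87.4 to 136, 82.7 to 107 and 91.1 to 120 CPM, overlapped. The log2 fold change for ELS was 0.16 ± 0.07 in Fkbp5Nex mice (unadjusted p = 0.0474, edgeR FDR 0.9995) and -0.08 ± 0.07 in Fkbp5lox/lox mice (FDR 0.956). The interaction, coded as the effect in Fkbp5lox/lox minus that in Fkbp5Nex, was -0.24 ± 0.10 (unadjusted p = 0.0315, FDR 0.999).

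**Figure D3:**
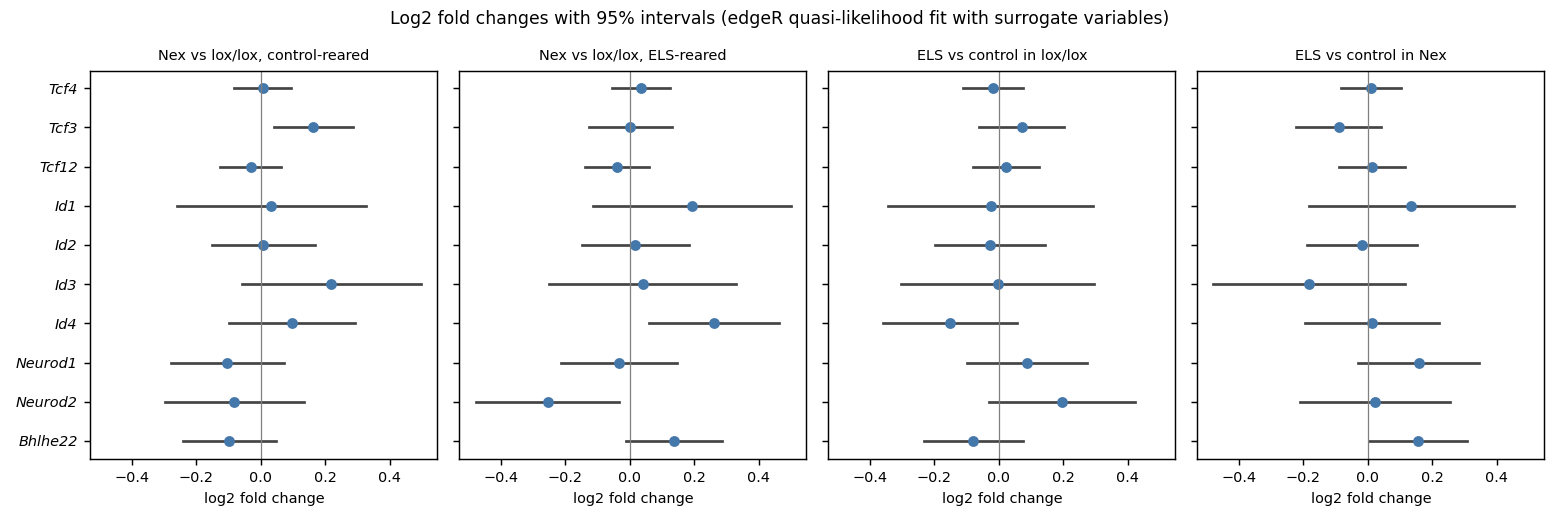
Log2 fold changes (horizontal axes) of the 10 genes for genotype in each rearing condition and for ELS in each genotype, with 95% intervals from the edgeR fit. The intervals of *Tcf4* and *Tcf12* are the narrowest and those of *Id1* and *Id3* the widest, and no gene passed an FDR of 0.02.

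Other genes of the pathway were taken from a list of 68 partners, repressors, cofactors and BMP signalling genes, of which 55 were tested. For genotype, 1 of 55 passed, beside 0.136% of all genes tested, and for the other 6 comparisons 0 of 55 passed. The gene that passed was *Neurod6*, which carries Cre in Fkbp5Nex mice. The part of the Cre allele in its lower level was not tested. At an unadjusted p below 0.05 the edgeR fit gave 9 of 55 for genotype, beside 11.4% of all genes tested. Of the 15 tested partners of E proteins, 12 had a positive and 3 a negative log2 fold change for genotype, with a median of 0.09. Of the 9 Hes, Hey and Bhlhe4 repressors, 3 were positive and 6 negative (median -0.09), of the 14 cofactors 5 and 9 (-0.05), and of the 17 BMP and Smad genes 12 and 5 (0.02). After *Neurod6*, the lowest p-values for genotype were those of *Hes1*, a repressor downstream of Notch, at -0.37 ± 0.11 (FDR 0.162), of the clock-linked repressor *Bhlhe40* at -0.16 ± 0.05 (FDR 0.201) and of *Scx*, a partner known from tendon, at 0.37 ± 0.14 (FDR 0.286). None of these 3 passed the test.

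Within groups, the E proteins varied less between mice than the other members, and the Id genes and neuronal factors were interleaved. The SD of log2 CPM was 0.102 for *Tcf12*, 0.103 for *Tcf3* and 0.120 for *Tcf4*, below the median of 0.182 over all genes tested. It was 0.153 for *Bhlhe22*, and from 0.207 to 0.323 for *Id4*, *Neurod2*, *Id2*, *Id1*, *Neurod1* and *Id3*, in rising order. Counting error alone would give 0.0575 for *Id3* and 0.0137 for *Tcf4*.

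How the genes varied together was measured on deviations of log2 CPM from the group means over 24 mice, for the 45 pairs of family members and the 110 pairs of a member with a marker score. The score of a list is the mean z-score of its tested markers. Of these 155 relations, 14 had a Benjamini-Hochberg adjusted permutation p (q) below 0.05 by Pearson's r, and 4 had it by both Pearson's r and Spearman's rho. *Neurod1* followed the dentate granule score, with r = 0.87 (permutation p = 3.0e-05, q = 0.00413) and rho = 0.82 (p = 6.0e-05, q = 0.00465). Without mice 12 and 8, the farthest from the median score, r was 0.78, and it was 0.39 after the surrogate variables had been removed. *Id2* followed the astrocyte score, with r = 0.82 (p = 8.0e-05, q = 0.00413) and rho = 0.76 (p = 0.00047, q = 0.0243), and r was 0.79 without mice 12 and 42. The surrogate variables held 66.7% of the variance of *Id2* within groups. *Id2* also followed the microglia score, with r = 0.85 (p = 8.0e-05, q = 0.00413) and rho = 0.71 (p = 0.00089, q = 0.0345), and r was 0.79 without mice 42 and 12. Mouse 12 was the highest on both scores (1.95 for astrocytes, 1.81 for microglia) and mouse 42 the lowest (-1.18 and -1.98). The r between the 2 scores was not computed, so the 2 relations of *Id2* cannot be taken as separate.

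Among the members themselves, *Id1* and *Id3* moved together, with r = 0.63 (permutation p = 0.00017, q = 0.00620) and rho = 0.72 (p = 6.0e-05, q = 0.00465). Without mice 42 and 54, r was 0.65. *Id2* and *Id3* had r = 0.78 (q = 0.00952) and rho = 0.66 (q = 0.0850), and *Neurod1* and *Bhlhe22* had r = 0.69 (q = 0.0393) and rho = 0.59 (q = 0.121), so that both passed by r only. *Tcf4* had r = 0.67 with the astrocyte score (q = 0.0482, rho = 0.53, q = 0.155), which fell to 0.43 without mice 12 and 42. It had r = -0.68 with the oligodendrocyte score (q = 0.0361, rho = -0.64, q = 0.0938). *Tcf4* had r = -0.17 with *Tcf3* (q = 0.75) and r = 0.17 with *Tcf12* (q = 0.78). The labels give no sequencing batch, so no value within batches could be computed.

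**Figure D4:**
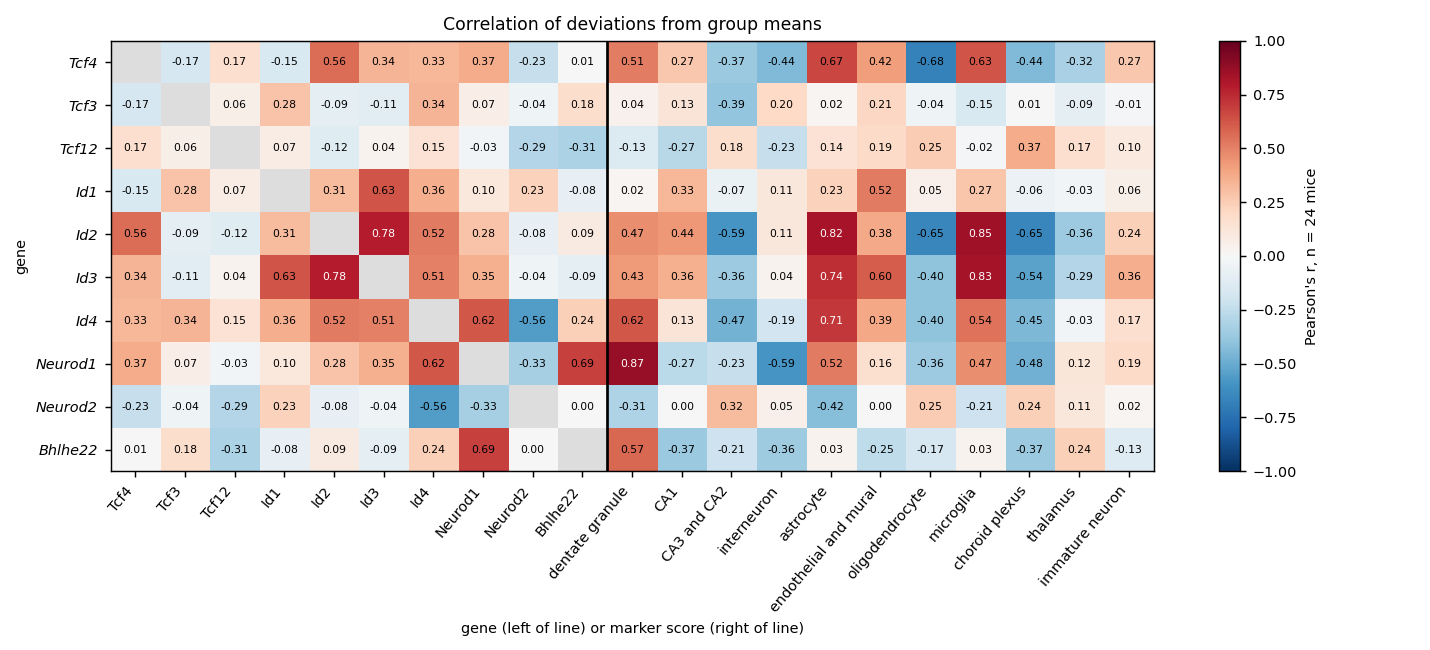
Pearson's r of deviations from group means over 24 mice, for each gene (rows) with the other genes (left of the line) and with 11 marker scores (right of it). *Id2* and *Id3* have their highest marker r with microglia (0.85 and 0.83), *Id4* with astrocytes (0.71) and *Neurod1* with dentate granule markers (0.87).

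**Figure D5:**
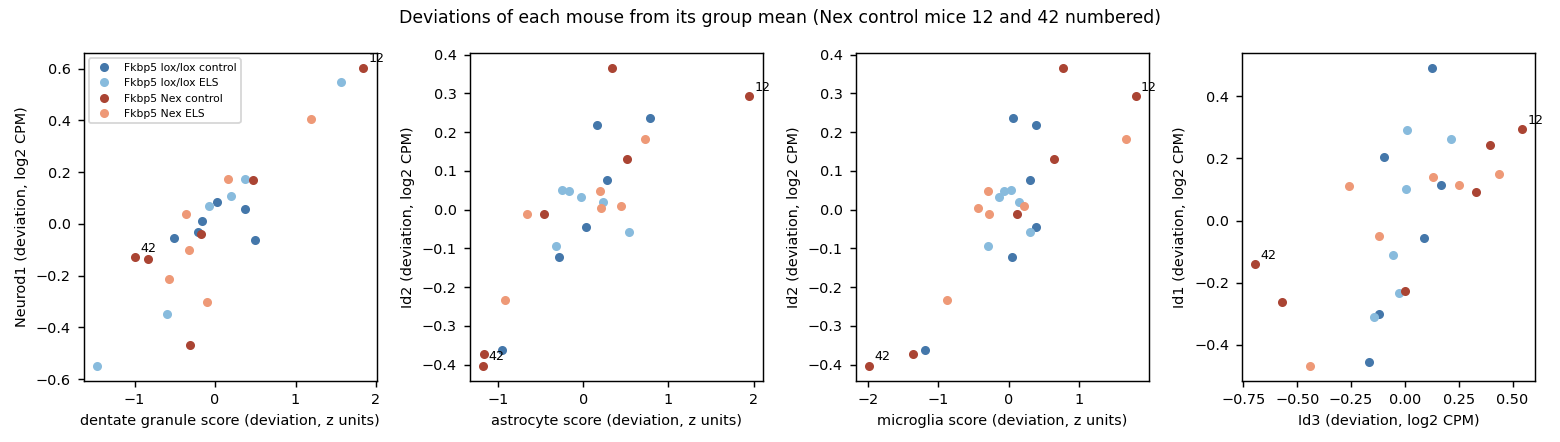
Deviation of each mouse from its group mean for the 4 relations that passed by both measures, as log2 CPM for genes and z units for marker scores, with colours for groups. Fkbp5Nex control mouse 12 is the highest and mouse 42 the lowest on the microglia score, and r without both is 0.79 for *Id2*.

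The tested genes most like each member were ranked by r of the same deviations over 24 mice, as a description with no test. For *Neurod1* these were *Scnn1a* (r = 0.92) and *Tmem171* (0.87), for *Tcf4* *Sphkap* (0.89) and the growth factor *Igf1* (0.87), and for *Tcf12* *Qser1* (0.89) and *Gm43300* (0.85). For *Tcf3* they were *Dchs1* (0.80) and *Caskin2* (0.77). For *Id2* they were *Lmcd1* (0.89) and *Ddah1* (0.89), for *Id3* *Selplg* (0.90), a selectin ligand of leukocytes and microglia, and *2810459M11Rik* (0.89), and for *Id4* the sphingosine receptor gene *S1pr1* (0.80) and *Ppap2b* (0.78). *Id1* was nearest to *Syngr2* (0.79) and *Tpm4* (0.74), *Neurod2* to *Prkag2* (0.85) and *Crmp1* (0.83), and *Bhlhe22* to *Elmo2* (0.83) and *Lgi1* (0.79).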

How the data were processed

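Bulk RNA-seq of 24 female hippocampi was analysed, in the 4 groups given by the labels. The authors deposited raw counts per gene, made from read pairs aligned with HISAT2 2.0.5 and counted with featureCounts 1.5.0-p3. The genome build, annotation and strand setting are not given in the sources used here, so values of overlapping genes are uncertain. Gene positions and lengths came from GENCODE vM21 by Ensembl identifier, matched for 46488 of 46983 genes.

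A gene was tested if all mice of any 1 group had 10 or more counts. Tests ran with edgeR 4.0.16 (quasi-likelihood, TMM, R 4.3.3) in one model of 4 group means and 5 surrogate variables (svaseq, sva 3.50.0), with Benjamini-Hochberg adjustment. Standard errors came from the fold change and its F statistic. The study used DESeq2 with surrogate variables at the same FDR, and DESeq2 1.42.0 was an alternative here. Relations used 100000 two-sided permutations within groups (Python 3.11.15, numpy 2.4.6). On data simulated for genotype with 16209 genes, 81 of 100 genes changed by 0.5 (log2) and 98 of 100 changed by 1 were recovered. For the interaction 59 and 86 of 100 were recovered, and for ELS in Fkbp5lox/lox 71 and 93. The simulated counts had only the spread left after the 5 surrogate variables, without the differences between mice that these stand for. In them 2 surrogate variables were found for genotype and 1 in each of the other simulations. The recoveries can therefore be higher than in the real data.

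The members and lists were chosen with earlier results of these data known. Named were all members, *Fkbp5*, *Neurod6*, the 2 genes nearest each member, and genes of the pathway list that passed in any comparison, filled to 4 by the smallest p for genotype. Litters are not given in the labels. Alternatives were no surrogate variables, other scaling, filters and thresholds, DESeq2, only the 12 mice compared, and each mouse left out.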

Additional observations from a re-analysis of the deposited data

Results flagged for a closer look

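Of 40 combinations of a gene and a group of 6 mice, 1 had a mouse apart from the others by Dixon's criterion (gap over range), and chance gives about 1 in 20. *Id1* in Fkbp5Nex ELS mouse 10 was at 6.82 CPM, with the next mouse at 9.14 and a gap over range of 0.631.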

How the results depend on the processing

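None of the 10 genes was called in any of the 221 counts made over 32 settings, and the lowest FDR of a member was 0.205, with 1 mouse left out. Without surrogate variables, 16 of 70 log2 fold changes of members changed direction, none of them called, against 11 of 70 with filterByExpr, 7 of 70 with no filter, 9 of 40 with only the 12 mice compared and 153 of 1680 with 1 mouse left out. With DESeq2 or its size factors 0 of 70 did. The pathway list had 1 gene called for genotype, *Neurod6*, and 0 without surrogate variables and 0 with filterByExpr, where its FDR was 0.171 and 0.0388. Leaving out each mouse gave from 0 to 1, with the call lost in 8 of 24 refits: those without Fkbp5lox/lox control mice 30, 44 or 74, Fkbp5lox/lox ELS mice 56, 68 or 72, Fkbp5Nex control mouse 12 or Fkbp5Nex ELS mouse 60, where the FDR of *Neurod6* lay between 0.0206 and 0.176. The relations that passed by both measures numbered 4, and 8 with the surrogate variables regressed out. These counts do not say which of the 4 remained. The cause was not tested. No paired analysis was possible because the groups share no mouse numbers. A p that misses the threshold does not show that a gene did not change. The intervals give the sizes left in the fit with surrogate variables.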
